A study of Mus musculus with 18 samples.

Results

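CHD4 bound the genome of granulocyte-monocyte progenitors (GMPs) in uneven groups, and the densest of these are described here. CHD4 peaks of wild-type GMPs were joined where the gap between neighbours was at most 12.5 kb, and merged regions with 6 or more peaks were taken as dense clusters, so the members were selected on the number and spacing of the wild-type peaks. Of 13806 merged regions 1397 were dense, and the 1394 dense clusters on assembled chromosomes were analysed. They held 13442 of the 35728 CHD4 peaks on these chromosomes, or 37.6%, in 42.8 Mb of sequence. The remaining peaks fell into 5471 regions of 2 to 5 peaks and 6928 single peaks.

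All cells came from the bone marrow of C57BL/6 mice aged 6 to 12 weeks. CHD4 ChIP-seq was made from wild-type GMPs and from Gfi1-/- GMPs, which lack the transcription factor GFI1, and H3K4me2 ChIP-seq was made from wild-type GMPs, pre-neutrophils (preNeu) and mature neutrophils (matNeu). Each ChIP-seq group had 1 library, so nothing that rests on the peak lists has a replicate check or a test. RNA-seq of wild-type GMP, preNeu and matNeu cells had 3 libraries each, and the labels do not say that the libraries of 1 cell type came from separate animals, so p-values measure the spread between these libraries only.

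The labels name the cell type in the title and in a separate field, and these differ for the H3K4me2 libraries of preNeu and matNeu and for all 9 RNA-seq libraries, so titles were used. The RNA fitted the titles. Mean levels of the primary granule protease gene Elane were 7314, 2815 and 3.41 TPM in the libraries titled GMP, preNeu and matNeu, of the secondary granule gene Ngp 10.8, 71395 and 2283 TPM, and of the chemokine receptor gene Cxcr2 9.23, 76.4 and 3468 TPM. The stages of the H3K4me2 lists were taken from their titles. The B cell gene Cd79a was at means of 0.27, 6.98 and 22.7 TPM.

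CHD4 is an ATP-dependent chromatin remodeller and the motor of the NuRD complex, which joins nucleosome remodelling to histone deacetylation. GFI1 is a zinc finger repressor of the granulocyte lineage that binds DNA through an AATC core and recruits chromatin-modifying partners. H3K4me2, the dimethylation of histone H3 at lysine 4, marks promoters and enhancers, and runs of neighbouring factor sites are common at genes that define a cell type.

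The strongest CHD4 summits of clusters that recur below are shown first, as 100 bp windows of GRCm38, plus strand, centred on the summit. Capitals mark any of 6 short cores that were searched on both strands, namely AAATCA (GFI1), GAGGAAGT (SPI1), GGAANNGAA (ETS-IRF composite, which can overlap the SPI1 core), TGTGGT (RUNX), TTGCNNAA (C/EBP) and TGANTCA (AP-1). Peaks called kept were overlapped by a peak of the Gfi1-/- list. CHD4 signal was not compared between the genotypes, so a kept peak may still be weaker in Gfi1-/- GMPs.
Ankrd11, kept, chr8:122928944-122929043: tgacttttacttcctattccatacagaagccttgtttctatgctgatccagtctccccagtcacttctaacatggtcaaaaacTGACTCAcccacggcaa
S1pr1, kept, chr3:115689414-115689513: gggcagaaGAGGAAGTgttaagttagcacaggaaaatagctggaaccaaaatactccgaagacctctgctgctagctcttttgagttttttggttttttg
Ccr1, kept, chr9:123985067-123985166: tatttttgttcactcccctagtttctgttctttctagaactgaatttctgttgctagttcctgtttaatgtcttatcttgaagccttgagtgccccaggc
Gfi1, kept, chr5:107721236-107721335: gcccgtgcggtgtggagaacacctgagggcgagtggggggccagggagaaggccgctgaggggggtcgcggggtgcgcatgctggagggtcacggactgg
Gfi1, not kept, chr5:107701114-107701213: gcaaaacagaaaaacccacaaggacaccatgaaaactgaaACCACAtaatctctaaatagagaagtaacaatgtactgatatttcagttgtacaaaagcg
Cd34, kept, chr1:194943653-194943752: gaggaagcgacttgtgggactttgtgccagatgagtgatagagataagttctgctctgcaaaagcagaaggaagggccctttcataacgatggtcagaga
Mmp8, kept, chr9:7558264-7558363: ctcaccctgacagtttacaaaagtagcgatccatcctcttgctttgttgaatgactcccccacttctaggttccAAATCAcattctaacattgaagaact
Mmp12, kept, chr9:7344262-7344361: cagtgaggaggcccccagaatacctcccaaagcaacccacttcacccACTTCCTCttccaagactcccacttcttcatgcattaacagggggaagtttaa
Tlr2, not kept, chr3:83859235-83859334: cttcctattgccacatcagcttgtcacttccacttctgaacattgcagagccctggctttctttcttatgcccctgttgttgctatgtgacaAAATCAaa
S100a8, not kept, chr3:90686668-90686767: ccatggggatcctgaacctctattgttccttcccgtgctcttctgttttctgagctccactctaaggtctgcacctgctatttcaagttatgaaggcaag
The windows of Ccr1, Cd34 and S100a8 and the kept Gfi1 window hold no core, and those of Tlr2 and Mmp8 hold the GFI1 core although only the second peak was kept.

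The SPI1 core stood out most at the summits. In windows of 200 bp around the 13442 summits, GAGGAAGT was found in 10.7% (95% Wilson interval 10.2 to 11.3%), against 1.63% of windows of the same length 1000 bp downstream. The ETS-IRF core was in 14.6% of summits against 6.53% downstream, the C/EBP core in 17.3% against 8.91%, the RUNX core in 22.5% against 15.1% and the AP-1 core in 10.1% against 6.35%. The GFI1 core went the other way, in 12.3% of summits (11.8 to 12.9%) and in 15.6% of downstream windows. Summits outside dense clusters held the SPI1 core slightly more often, in 12.4% (11.9 to 12.8%), and the GFI1 core about as often, in 11.9% (11.4 to 12.3%). Median GC content was 46.5% in the summit windows of dense clusters and 47.0% in those outside, and repeats made up 14.4% and 14.6% of bases. The base composition of the downstream windows was not computed. Some of these windows may also lie in or near another CHD4 peak. A core in a window is a match of letters and was not tested as a binding site.

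**Figure D1:**
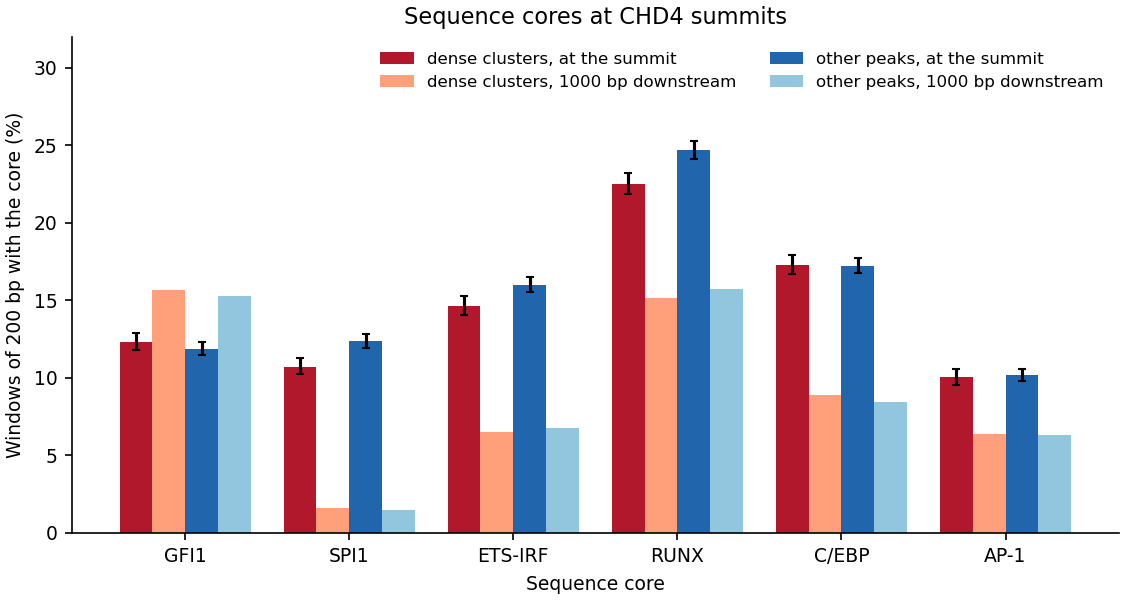
Share of 200 bp windows (percent) that hold each of 6 sequence cores, at CHD4 summits of dense clusters, 1000 bp downstream of them, and likewise for all other CHD4 peaks; error bars at the summits are 95% Wilson intervals. The SPI1 core is at 10.7% of dense summits and 1.63% of downstream windows, and the GFI1 core at 12.3% and 15.6%.

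Each core was found at least once in most clusters, but every cluster pools several windows. At least 1 summit with the RUNX core was found in 87.2% of the 1394 clusters, with the C/EBP core in 80.1% and with the ETS-IRF core in 73.6%. The shares were 66.1% for the GFI1 core, 62.3% for the SPI1 core and 59.8% for the AP-1 core. Downstream windows were not counted by cluster, so these shares have no background. A short core can reach such shares through the number of windows alone. The GFI1 core did so although it was rarer at summits (12.3%) than in downstream windows (15.6%). Within dense clusters the kept peaks held the RUNX core in 26.2% of summits, the C/EBP core in 20.3% and the ETS-IRF core in 17.2%, against 21.2%, 16.2% and 13.7% of the peaks not kept. For the SPI1 core the shares were 12.0% and 10.3%, for the GFI1 core 13.2% and 12.0% and for the AP-1 core 10.1% and 10.04%. All 36 summits of a repeat-rich cluster on chromosome 9, described below, held the GFI1 core, and 34 of its peaks were kept. It raises the GFI1 share of kept peaks, and the shares of kept and unkept peaks without it were not computed. Kept peaks were also wider, with a median of 718 bp against 318 bp, and stronger. By height the RUNX core did not go one way. Peaks with it were kept in 64.6% of cases in the highest 3 of 10 groups of fold, against 59.9% of peaks without it. The shares were 2.81% against 4.17% in the middle 4 groups and 0.325% against 1.54% in the lowest 3. The lowest groups include the repeat-rich cluster, none of whose 36 summits held the RUNX core. Its 34 kept peaks count among those without the core, and the shares without that cluster were not computed.

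A dense cluster had a median length of 26746 bp, from 3660 to 129495 bp, and a median of 8 peaks, at most 51. Neighbouring peaks lay a median of 1743 bp apart (quartiles 550 and 4631 bp). Because the rule used the number of peaks, these values and the peak heights below describe the choice and carry no test. The median fold enrichment over background was 8.997 in dense clusters (quartiles 5.89 and 16.4), 7.51 in regions of 2 to 5 peaks and 6.45 in single peaks. Just outside the rule, the longest regions of 5 peaks lay at Tmem135 (41468 bp), Gm10097 (35583 bp) and Gfod1 (34897 bp) and kept 0 peaks each. Just inside it, the 2 shortest regions of 6 peaks lay nearest to Foxn3 (3660 bp) and Ptger4 (4620 bp) and kept 0 peaks each. The 496 regions of 5 peaks kept 20.6% of their peaks and the 365 regions of 6 peaks kept 20.9%.

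Summits in dense clusters lay in gene bodies in 51.8% of cases, between genes in 41.8% and in promoters, from 2000 bp before to 500 bp after a gene start, in 6.44%. A total of 551 clusters (39.5%) held the start of at least 1 protein-coding gene, 480 lay over gene bodies without a start, and 363 lay between genes at a median distance of 55463 bp from the nearest start, 169 of them within 50 kb. Together the 551 clusters held the starts of 728 protein-coding genes, 3.32% of the 21938 annotated. In 452 of them there was exactly 1 gene, and the most was 14.

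The cluster with the most peaks, 51 over 127592 bp at chr8:122916765-123044356, covered Ankrd11, a gene for a nuclear ankyrin repeat protein. In the Gfi1-/- list 14 of the 51 peaks were kept. Ankrd11 RNA was at 36.0, 28.4 and 33.0 TPM in GMP, 31.9, 42.1 and 34.0 in preNeu and 100.2, 87.3 and 119.6 in matNeu libraries. The matNeu values lay above all others, with a log2 change from GMP of 1.62 ± 0.17 (SE; adjusted p = 6.36e-06, limma), while preNeu and GMP overlapped (adjusted p = 0.507, limma).

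A cluster of 38 peaks at chr6:129312456-129441950, 14 of them kept, lay over C-type lectin receptor genes. Of these Clec12a, an inhibitory myeloid receptor, was the one with high RNA, at 554, 476 and 546 TPM in GMP, 751, 781 and 783 in preNeu and 179, 247 and 233 in matNeu libraries. The 3 stages did not overlap, with preNeu highest and matNeu lowest (log2 change from GMP -1.26 ± 0.13, adjusted p = 5.03e-06, limma), but the matNeu change was 0.13 when libraries were centred on the median gene. Clec1b reached 8.59 TPM in 1 matNeu library and Clec12b and Clec9a did not exceed 4.66 TPM in any library, so within 1 cluster the levels of neighbouring receptor genes were far apart.

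Chemokine or chemokine receptor genes lay in 2 of the 12 largest clusters. The cluster at chr9:123927170-123999633, with 33 peaks over Ccr1 and Ccr1l1, had the strongest summit of those shown above (fold 80.7) and kept 17 peaks. Ccr1, a receptor for inflammatory CC chemokines, was at 7.24, 5.49 and 4.59 TPM in GMP, 40.6, 53.8 and 60.7 in preNeu and 968, 1023 and 1283 in matNeu libraries. Every stage lay above the one before it, and the log2 change from GMP to matNeu was 7.34 ± 0.20 (adjusted p = 3.27e-10, limma), whereas Ccr1l1, a near copy whose reads may be shared, stayed at or under 1.27 TPM.

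A cluster of 34 peaks at chr11:83533290-83620036, 10 of them kept, held the CC chemokine genes Ccl6 and Ccl9, and the 2 neighbours moved in opposite directions. Ccl6 was at 17.5, 14.3 and 14.2 TPM in GMP, 8.33, 9.12 and 10.4 in preNeu and 6637, 6572 and 5663 in matNeu libraries. Ccl9 was at 313, 213 and 269.7 TPM in GMP, 4.02, 4.24 and 4.66 in preNeu and 30.5, 27.0 and 39.7 in matNeu libraries. From GMP to matNeu Ccl6 rose by 8.59 ± 0.14 on the log2 scale (adjusted p = 1.73e-11, limma) and Ccl9 fell by 2.99 ± 0.19 (adjusted p = 1.18e-07, limma), with no overlap of the groups in either gene.

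Ccr2, the receptor that draws monocytes out of the marrow, lay in a cluster of 28 peaks with 12 kept. Its RNA was at 154, 109.8 and 118 TPM in GMP, 5.41, 2.52 and 2.90 in preNeu and 0.558, 0.269 and 0.891 in matNeu libraries, a log2 change of -6.35 ± 0.29 to matNeu (adjusted p = 8.15e-09, limma). GMP libraries also held RNA of monocyte, eosinophil, basophil and mast cell genes. Mean levels were 906 TPM for F13a1, 759 for Prg2, 144 for Epx and 235 for Cpa3, which fell to 13.3, 16.1, 3.01 and 24.5 TPM in preNeu libraries and to at most 3.06 TPM in matNeu. The other markers of these cells had another order of levels. Csf1r was at means of 204, 13.8 and 304 TPM in GMP, preNeu and matNeu (matNeu against GMP adjusted p = 0.0948, limma), and Mcpt8 at 97.3, 76.4 and 1.18 TPM (preNeu against GMP adjusted p = 0.304, limma). In bulk samples fewer cells of a type and less RNA per cell cannot be told apart, and the part of such cells in the fall of Ccr2 was not tested.

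S1pr1, the receptor for sphingosine 1-phosphate that guides lymphocyte traffic, lay in a cluster of 33 peaks at chr3:115642093-115766542 with 14 kept, although its RNA was scarce. It was at 0.981, 0 and 2.12 TPM in GMP, 0.892, 0.083 and 1.02 in preNeu and 6.89, 4.55 and 8.52 in matNeu libraries. All matNeu values were the highest (log2 change 2.02 ± 0.43, adjusted p = 0.00136, limma), and H3K4me2 covered 12.1%, 13.5% and 12.3% of the cluster in GMP, preNeu and matNeu. With each H3K4me2 list reduced to its strongest peaks up to the covered length of the GMP list, called equal covered length below, these were 12.1%, 4.25% and 6.99%. A second receptor cluster of 31 peaks, 12 kept, held Gpr183, an oxysterol receptor that fell from 13.2, 12.6 and 7.19 TPM in GMP to 0.265, 2.95 and 1.86 in preNeu and 2.14, 3.07 and 2.31 in matNeu libraries (adjusted p = 0.000789 and 0.00259, limma). Its neighbour Gpr18 did not pass the test at either stage, with adjusted p = 0.159 and 0.886 (limma).

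The adaptor gene Pag1 and the splicing regulator gene Mbnl1 each lay in a cluster of 32 peaks, with 10 and 9 kept. Pag1 was at 7.76, 6.50 and 8.08 TPM in GMP, 26.1, 32.5 and 26.2 in preNeu and 113, 122 and 144 in matNeu libraries, rising without overlap (log2 change to matNeu 3.91 ± 0.17, adjusted p = 5.95e-09, limma). Mbnl1 fell without overlap, from 684, 625 and 517 TPM in GMP to 363, 359 and 406 in preNeu and 96.1, 82.3 and 109 in matNeu libraries (-2.65 ± 0.14, adjusted p = 2.43e-08, limma). Clusters alike in their number of peaks thus lay at genes with opposite changes. A cluster of 30 peaks, 9 kept, lay inside Mctp1, which rose from 84.3, 83.7 and 78.8 TPM in GMP to 156, 190.2 and 181 in matNeu libraries (1.08 ± 0.14, adjusted p = 2.38e-05, limma). In the cluster of 29 peaks at the adenosine receptor gene Adora3, 9 were kept, and Adora3 reached no more than 6.39 TPM in any library.

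The histone gene cluster at chr13:23682838-23769666 had 33 peaks, of which 5 were kept. It held 14 gene starts, the highest number found, which it shared with an interferon family cluster on chromosome 4. Hist1h1c, a linker histone gene, was at 16.2, 19.3 and 19.1 TPM in GMP, 26.8, 23.0 and 29.99 in preNeu and 339, 251 and 384 in matNeu libraries (log2 change to matNeu 4.07 ± 0.18, adjusted p = 7.38e-09, limma). Hist1h2bc was at 16.8, 14.8 and 15.1, then 3.50, 3.18 and 2.39, then 218, 149 and 159 TPM, so it was lowest in preNeu and highest in matNeu cells. Most replication-dependent histone transcripts end without a poly(A) tail and have near-identical copies, and the libraries were made from poly(A) RNA, so the levels of these genes are uncertain.

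One of the 12 largest clusters stood apart. At chr9:3000005-3038299, 36 peaks had folds between 1.69 and 2.73, the lowest maximum of any cluster and the only one under 5, and covered 85.4% of the interval, whose summit windows were 98.2% repeat bases. It kept 34 of its 36 peaks and held 47 peaks of the Gfi1-/- list. Its genes, among them Gm10719 and Gm10721, are near copies with up to 20.3 TPM in 1 matNeu library, and their values are uncertain. Without it, a setting added after seeing the data, dense clusters kept 26.0% of their peaks, and no count of called genes below changed by more than 3.

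Across all dense clusters 3524 of 13442 CHD4 peaks were kept in Gfi1-/- GMPs, 26.2% (25.5 to 27.0%, Wilson, counting error only), against 15.8% (15.3 to 16.4%) in regions of 2 to 5 peaks and 9.19% (8.54 to 9.90%) of single peaks. The Gfi1-/- list was far shorter, with 7316 peaks against 35790, and the depth of both lists is unknown, so absence of GFI1 and a library of lower yield cannot be told apart. The share kept followed the height of the wild-type peak. Among peaks in the highest of 10 equal groups of fold, 21.2 to 101, 93.1% of dense and 92.6% of other peaks were kept, and in the next group, 14.5 to 21.2, 51.1% (48.8 to 53.5%) and 48.6% (46.4 to 50.9%). In the lowest 6 groups at most 3.40% of dense and 4.69% of other peaks were kept, and of the 38 dense peaks kept in the lowest group 34 were those of the repeat-rich cluster on chromosome 9. Weighted to the folds of the dense peaks, the other peaks would have kept 25.9%, so at equal height dense and other peaks were kept at nearly the same rate.

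**Figure D2:**
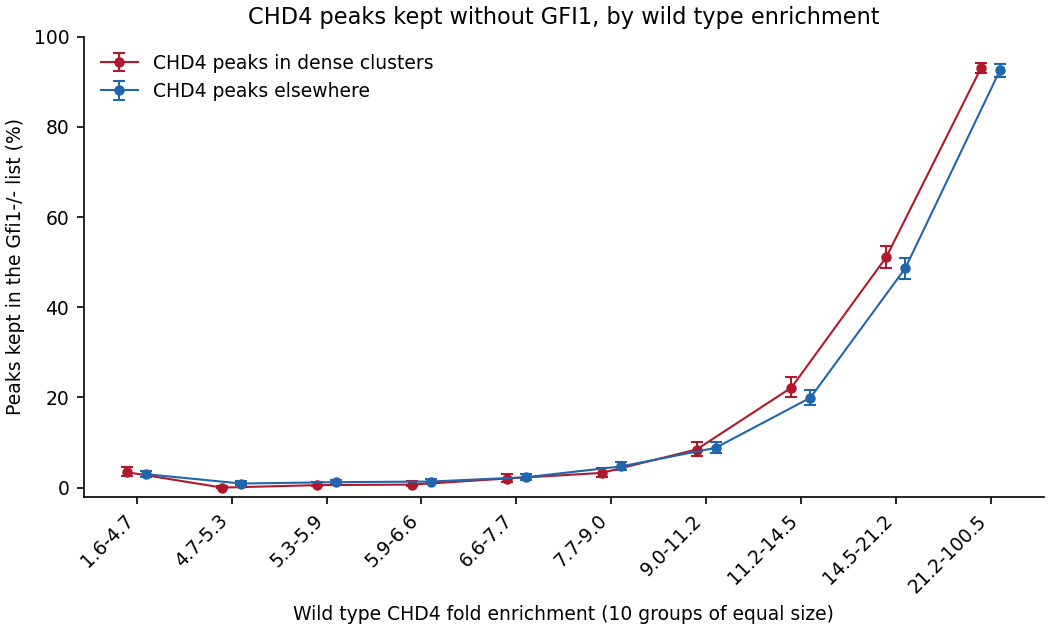
Share of wild-type CHD4 peaks kept in the Gfi1-/- list (percent) by group of wild-type fold enrichment, from the lowest to the highest of 10, for peaks in dense clusters and all other peaks, with 95% Wilson intervals. Both series run close together and reach 93.1% and 92.6% in the highest group.

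Seen by cluster, 1142 of 1394 (81.9%, 79.8 to 83.9%) kept at least 1 peak, against 32.7% of regions of 2 to 5 peaks, which had fewer peaks to keep. No peak was kept in 252 clusters, exactly 1 in 309, and 3 or more in 565, and the median fold of the strongest peak was 13.7, 20.9 and 38.5 in these. The strongest peak of a cluster was kept in 1045 clusters (74.96%), whereas the other peaks were kept in 20.6% of cases. Where just 1 peak was kept it was the strongest in 242 of 309 clusters (78.3%). By size, clusters of 6 to 9 peaks kept 22.8%, of 10 to 14 peaks 28.4%, of 15 to 19 peaks 28.2% and of 20 or more peaks 32.6% of their peaks. The median fold of their peaks also rose, at 8.69, 9.31, 9.53 and 9.74, and the shares by size were not weighted for fold. The largest size group includes the repeat-rich cluster on chromosome 9. Position made little difference, with 25.1% of promoter, 26.2% of gene body and 26.4% of intergenic peaks kept. When the Gfi1-/- list was merged in the same way it gave 118 regions of 6 or more peaks, and all 118 overlapped dense clusters of wild-type GMPs. This was close to given, as only 2 Gfi1-/- peaks inside dense clusters overlapped no wild-type peak.

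The Gfi1 gene itself lay in a dense cluster, chr5:107698468-107729722, with 13 peaks between 26974 bp downstream and 3551 bp upstream of its start. The 6 kept peaks had folds from 15.1 to 45.3 and the 7 others from 3.58 to 11.3, so the groups did not overlap, and the peaks nearest the start, at 438 and 849 bp upstream, were among those not kept. The Gfi1 gene itself is altered in Gfi1-/- GMPs, and which of its bases are changed is not given in the sources used here. Kept and unkept peaks of this cluster may therefore not compare with those of other clusters. H3K4me2 lay over 10 of the 13 peaks in GMP and all 13 in preNeu and matNeu. Gfi1 RNA was at 8.01, 5.88 and 17.5 TPM in GMP, 20.1, 23.2 and 29.2 in preNeu and 0, 0 and 0.145 in matNeu libraries. It rose by 1.25 ± 0.35 to preNeu (adjusted p = 0.0108, limma) and was lower in matNeu than in GMP (-3.32 ± 0.35, adjusted p = 6.25e-06, limma), while its H3K4me2 cover was 38.9%, 69.5% and 51.1% in GMP, preNeu and matNeu, or 38.9%, 41.0% and 37.9% at equal covered length. A second cluster of 7 peaks within the neighbouring gene Evi5, 1 of them kept, had Gfi1 as the nearest gene start. Of the other regulators and granule genes that were looked up, Chd4, Cebpa, Cebpe, Spi1, Irf8, Elane, Camp, Mmp9 and Csf3r had no dense cluster over them or nearest to them.

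The clusters of Cd34 and Mpo lay at genes that were on in GMPs. Cd34, a progenitor surface sialomucin that was itself used to sort GMPs, had 13 peaks with 4 kept, and was at 498, 486 and 425 TPM in GMP, 1.22, 3.27 and 2.13 in preNeu and 1.84, 2.35 and 1.56 in matNeu libraries. One of its unkept peaks, with a fold of 20.1, was stronger than 2 of the kept ones. The paper reports a loss of CHD4 at Cd34 in Gfi1-/- GMPs. A kept peak here means only that peak calls of both lists overlap, and the signal at Cd34 was not compared. H3K4me2 lay over 9 of its 13 peaks in GMP, 5 in preNeu and 2 in matNeu, and covered 37.0%, 12.7% and 6.71% of the cluster, or 37.0%, 0% and 0% at equal covered length. Mpo, the gene for myeloperoxidase, the peroxidase of primary granules, had 8 peaks with 3 kept, all 3 with folds above those not kept. Its RNA was at 31476, 33396 and 31975 TPM in GMP, 4194, 5097 and 5938 in preNeu and 1.87, 7.65 and 2.61 in matNeu libraries, a log2 change of -12.82 ± 0.32 to matNeu (adjusted p = 2.45e-10, limma). Mpo cover by H3K4me2 was 50.6%, 58.9% and 32.8% in the 3 stages, or 50.6%, 50.8% and 0% at equal covered length.

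At Mmp8, the gene for neutrophil collagenase, the order was the reverse. CHD4 had 20 peaks at chr9:7543366-7578892 in GMPs, where Mmp8 was at 10.1, 5.07 and 8.57 TPM. RNA was at 174, 206 and 234 TPM in preNeu and 5831, 7533 and 6443 in matNeu libraries (log2 change from GMP 9.57 ± 0.21, adjusted p = 1.19e-10, limma), so the 3 stages did not overlap. The 5 kept peaks had folds of 15.2 to 49.0, all above the 9.83 of the strongest peak lost. H3K4me2 lay over 6 of the 20 peaks in GMP and 18 in both later stages, and covered 8.05%, 67.6% and 70.1% of the cluster. At equal covered length these were 8.05%, 0% and 69.0%, so the gain in matNeu was seen in both settings and that in preNeu in the lists as deposited only. S100a8, a gene for a subunit of calprotectin, had 7 peaks, none kept, with H3K4me2 over 3 in GMP and all 7 in preNeu and matNeu, and its RNA went from 22.1, 44.4 and 28.9 TPM in GMP to 29349, 24049 and 25918 in preNeu and 32249.6, 24702 and 14320 in matNeu libraries (adjusted p = 3.55e-09 and 6.78e-10, limma). The matNeu and preNeu values of S100a8 overlapped (adjusted p = 0.526, limma).

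Some clusters kept nearly all or none of their peaks. Mmp12, the gene for macrophage metalloelastase, had the only cluster in which every peak was kept, 6 of 6, with folds of 5.79 to 57.7. Its RNA was no more than 4.61 TPM in any library, and H3K4me2 covered 0%, 0% and 12.0% of it, or 0% in all stages at equal covered length. The purinergic receptor gene P2ry10 kept 8 of 9 peaks with RNA of at most 1.89 TPM, Wdfy2 kept 11 of 13 at 19.2 to 24.0 TPM in GMP, and a type I interferon family cluster on chromosome 4 around Ifnz kept 16 of 19, in near-identical gene copies where peaks and reads are uncertain. At the other end, none was kept of 18 peaks at Lcp1 and Lrrc63, 18 at Tsc22d3, 18 at Etv6, 16 at Tlr2 and 14 at Nfkb1, where the strongest folds were 16.1, 15.8, 20.8, 19.9 and 21.4. Expression differed widely among these genes. Lcp1, the gene for the actin-bundling protein L-plastin, was at 728, 715 and 632 TPM in GMP and 3921, 4587 and 4478 in matNeu libraries.

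Most genes of dense clusters were expressed, as were most genes of smaller CHD4 regions. A mean of at least 1 TPM in GMP was reached by 74.6% of the 728 genes, 77.9% of genes at regions of 2 to 5 peaks and 79.4% of those at single peaks, and by 49.9% of genes with no CHD4 region at their start. The median log2(TPM + 1) of the 728 genes was 3.80 ± 0.09 in GMP, 3.24 ± 0.21 in preNeu and 3.68 ± 0.09 in matNeu (SD, n = 3 libraries), against 3.74, 3.34 and 3.41 for regions of 2 to 5 peaks, 4.15, 3.79 and 3.20 for single peaks and 0.94, 0.54 and 0.51 for genes with no region. A mean of 100 TPM or more was reached by 14.7%, 15.7% and 22.3% of the 728 genes and by 8.93%, 6.23% and 5.43% of those with no region. Of the 728 genes, 598 (82.1%) passed the filter of at least 1 TPM in 3 libraries, and the counts below cover those 598 only. Their median in GMP was 4.61, beside 4.73 over the genes with no region that passed.

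In the fit over all 13061 genes, 14.7% were called higher and 44.3% lower in preNeu than in GMP, 22.8% and 54.1% in matNeu than in GMP, and 22.9% and 39.8% in matNeu than in preNeu (limma on log2(TPM + 1), Benjamini-Hochberg adjusted p of at most 0.05). Among the 598 genes of dense clusters 181 (30.3%) were higher and 214 (35.8%) lower in preNeu than in GMP, 262 (43.8%) and 218 (36.5%) in matNeu than in GMP, and 256 (42.8%) and 164 (27.4%) in matNeu than in preNeu. The median log2 change was -0.06, 0.32 and 0.37 in the 3 comparisons, beside -0.52, -0.92 and -0.32 over all genes. Genes with no CHD4 region were higher in matNeu than in GMP in 20.1% of cases and lower in 59.6%, and genes of regions of 2 to 5 peaks in 39.6% and 40.8%. A fold on this scale understates the change of genes with low values.

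**Figure D3:**
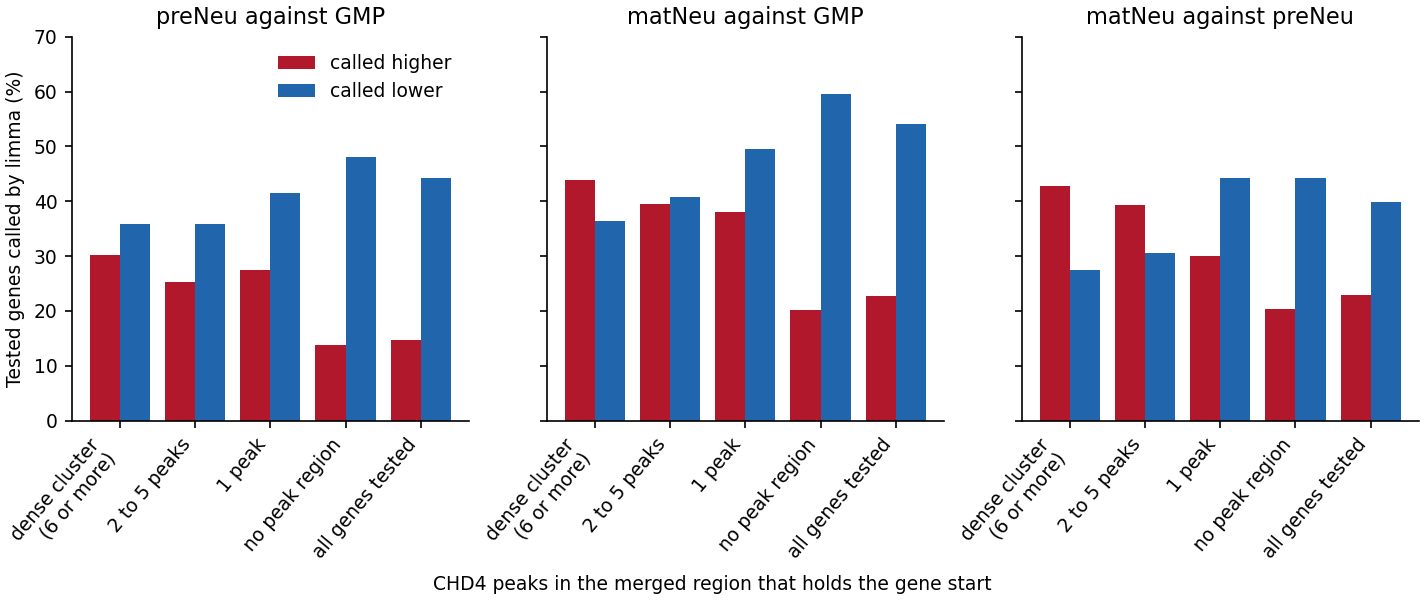
Share of tested genes (percent) called higher or lower by limma in each of the 3 stage comparisons, for genes with their start in a dense cluster, in a region of 2 to 5 peaks, in a single peak or in no CHD4 region, and for all genes tested. In matNeu against GMP 43.8% of the 598 dense-cluster genes are higher and 36.5% lower, against 22.8% and 54.1% of all 13061 genes.

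The share of calls that were higher depended on scaling. The 10 most abundant genes held 9.15 to 9.78% of TPM in GMP, 24.1 to 28.3% in preNeu and 12.7 to 15.9% in matNeu libraries. In matNeu against GMP 54.6% of the calls in dense clusters were higher as deposited, 76.5% after centring on the median gene and 69.2% after quantile normalization, beside 29.6%, 59.7% and 50.2% of the calls over all genes. In preNeu against GMP these were 45.8%, 68.8% and 64.4%, beside 24.98%, 54.7% and 48.1%, and in matNeu against preNeu 61.0%, 78.9% and 68.4%, beside 36.5%, 63.0% and 50.3%. The difference of dense-cluster genes from all genes had the same direction in each setting, but for the genes as deposited changes are to be read against the all-gene medians.

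A rise of more than 2 on the log2 scale from GMP to matNeu was called in 146 of 598 genes (24.4%) and a fall of that size in 119 (19.9%), beside 9.31% and 31.5% of all genes tested and 20.9% and 23.3% of genes of regions of 2 to 5 peaks. Rises and falls of this size together thus took a share near that of all genes, and the split between them was different. Over the path from GMP through preNeu to matNeu, 90 genes (15.1%) rose at both steps and 66 (11.0%) fell at both, beside 5.30% and 22.2% of all genes. A total of 74 genes fell and then rose (12.4%, beside 6.47%), and 55 rose and then fell (9.20%, beside 5.63%). By size of cluster, 44.1% of genes in clusters of 6 to 9 peaks, 43.3% in those of 10 to 14 and 43.8% in those of 15 or more were higher in matNeu than in GMP, while 38.7%, 35.7% and 32.3% were lower. The median log2 change was 0.27, 0.28 and 0.50 in these.

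Clusters without a gene start were described by the gene around them or nearest to them. Of 296 tested genes whose body held such a cluster, 123 (41.6%) were higher and 118 (39.9%) lower in matNeu than in GMP, beside 22.8% and 54.1% of all genes tested. The nearest genes of clusters between genes were higher in 66 of 190 cases (34.7%) and lower in 80 (42.1%). Their median log2 changes were 0.06 and -0.28, beside 0.32 for genes with their start in a cluster and -0.92 over all genes, and the differences between these groups were not tested.

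The 6 genes with the largest rise from GMP to matNeu were Pla2g7, Sirpb1b, Mmp8, S100a8, Sirpb1a and Ccl6. Pla2g7, which encodes the enzyme that inactivates platelet-activating factor, was at 0, 1.24 and 2.03 TPM in GMP, 5.76, 5.80 and 5.78 in preNeu and 1565, 1537 and 1746 in matNeu libraries (log2 change 9.74 ± 0.33, adjusted p = 1.16e-09, limma). Sirpb1b, a signal-regulatory receptor gene, was at 0.111, 0.218 and 0.168 TPM in GMP, 0.407, 0.461 and 0.783 in preNeu and 942, 902 and 976 in matNeu libraries (9.66 ± 0.20, adjusted p = 8.34e-11, limma). Its near copy Sirpb1a was listed at 0 in all GMP libraries and at 478, 389 and 404 TPM in matNeu, and reads may be split between the copies. These genes were close to silent in GMPs, where CHD4 had 11, 8 and 9 peaks in their clusters, with 6, 2 and 2 kept.

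The 6 largest falls were in Mpo, Ms4a3, Myc, Cd34, Tifab and Tfec. Ms4a3, a marker of the granulocyte-monocyte lineage, was at 1168, 1094 and 1188 TPM in GMP, 706, 670.2 and 630.5 in preNeu and 0.446, 0.915 and 1.63 in matNeu libraries (-9.21 ± 0.19, adjusted p = 8.34e-11, limma). Myc, the growth-promoting transcription factor, was at 386, 462 and 438 TPM in GMP, 17.2, 26.3 and 31.4 in preNeu and 0.089, 0.468 and 0.349 in matNeu libraries (-8.37 ± 0.23, adjusted p = 3.65e-10, limma). Tfec, a factor of the MiT family, went from 149, 154 and 155 to 29.9, 25.3 and 32.6 and to 0.182, 0 and 0.226 TPM (-7.09 ± 0.18, adjusted p = 2.65e-10, limma). In all 3 genes the stages fell in order without overlap. Tifab, a regulator of innate immune signalling, went from 359, 334 and 318 TPM in GMP to 6.44, 12.2 and 6.32 in preNeu and 1.60, 0.618 and 1.99 in matNeu libraries.

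**Figure D4:**
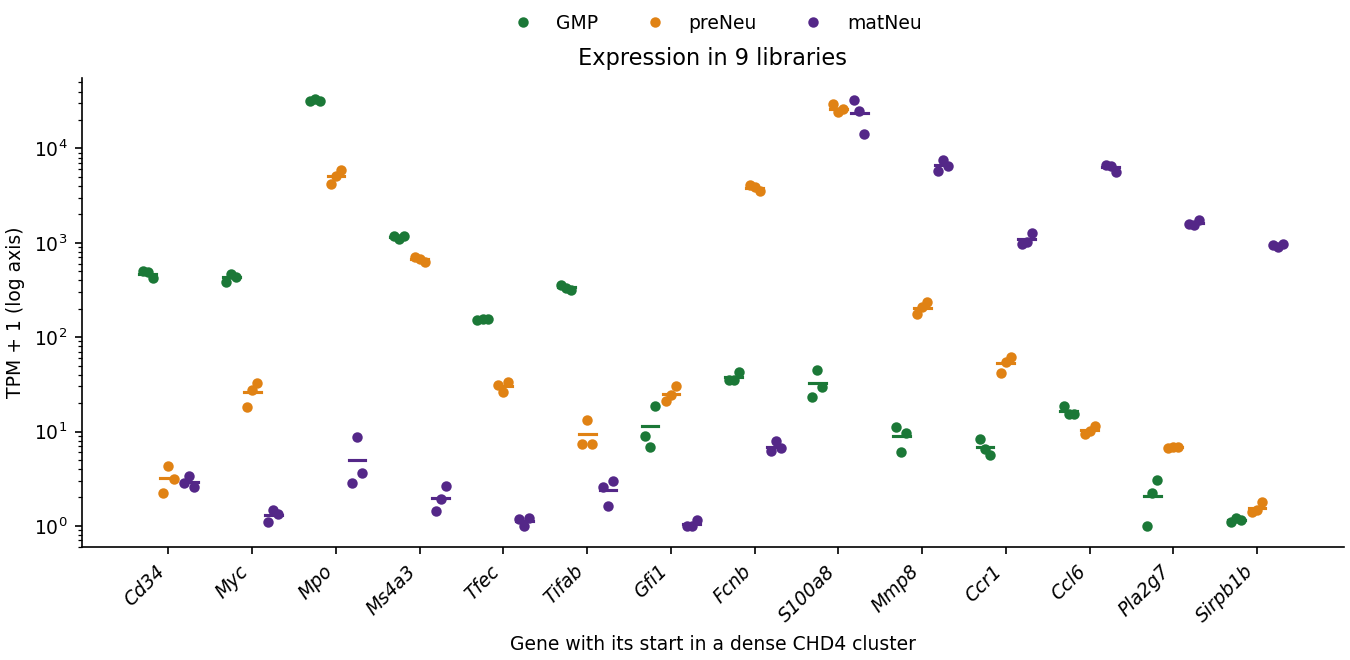
RNA of genes with their start in dense clusters, as TPM + 1 on a log axis, by gene; points are single libraries of GMP, preNeu and matNeu cells and bars their means. Mpo is at 31476 TPM or more in GMP and at most 7.65 TPM in matNeu libraries, while Mmp8 rises from at most 10.1 to at least 5831 TPM.

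At the earlier step, from GMP to preNeu, the largest rises were in S100a8, Ifitm6, Fcnb, Fpr2, Cd33 and Gsn. Fcnb, the gene for ficolin B, was at 34.6, 34.2 and 42.2 TPM in GMP, 4049, 3902 and 3532 in preNeu and 5.17, 6.85 and 5.68 in matNeu libraries, so it was high in preNeu cells only and rose by 6.66 ± 0.14 on the log2 scale (adjusted p = 2.43e-10, limma). Ifitm6, an interferon-induced membrane protein gene, went from 6.04, 3.19 and 12.1 TPM to 873, 735 and 772 in preNeu and 828, 1041 and 582 in matNeu libraries (6.77 ± 0.35, adjusted p = 1.59e-07, limma). Fpr2, a formyl peptide receptor gene, was listed at 0 in the GMP libraries and was at 93.5, 93.4 and 73.4 TPM in preNeu and 274, 326 and 252 in matNeu. Cd33, an inhibitory Siglec, and Gsn, which encodes the actin-severing protein gelsolin, rose by 5.68 ± 0.17 and 5.40 ± 0.18 (adjusted p = 3.86e-09 and 6.76e-09, limma). The largest falls at this step were in Cd34, Bex6, Ccl9, Ms4a6c, Ifi209 and Tifab, and Ms4a6c, whose family includes monocyte genes, went from 223, 186 and 190.4 TPM in GMP to 3.42, 1.75 and 4.51 in preNeu libraries. The part of monocyte-type cells in this fall was not tested.

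Gene lists named for the biology of the lineage were chosen with earlier results of these data known and are given as counts. Of 87 transcription factors 12 had their start in a dense cluster, and of these 5 were higher and 5 lower in matNeu than in GMP, beside 43 and 30 of the 80 tested on the whole list. Bcl6, a zinc finger repressor, went from 0.504, 0.583 and 1.27 TPM in GMP to 7.45, 6.81 and 11.9 in preNeu and 45.7, 42.4 and 50.7 in matNeu libraries (log2 change to matNeu 4.75 ± 0.27, adjusted p = 4.15e-08, limma). Myb, a factor of progenitor growth, went from 192, 188 and 212 TPM in GMP to 42.8, 52.0 and 81.4 and to 5.17, 7.87 and 6.41 (-4.74 ± 0.23, adjusted p = 1.34e-08, limma). The stages of both genes did not overlap and ran in opposite order.

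Of 38 genes for granule and antimicrobial proteins 7 lay in dense clusters, with 4 higher and 3 lower in matNeu than in GMP, beside 29 and 9 of the whole list. Of 32 cytokine and growth factor receptors 10 did, with 6 higher and 3 lower beside 20 and 10. Il13ra1, a chain of the interleukin 13 receptor, rose late, from at most 3.38 TPM in GMP and preNeu libraries to 137, 152 and 190.4 TPM in matNeu (6.55 ± 0.43, adjusted p = 1.33e-07, limma). Ifngr1, the interferon gamma receptor chain, was at 684, 709.9 and 657 TPM in GMP, 272, 282 and 363 in preNeu and 293, 319 and 304 in matNeu libraries (-1.16 ± 0.12, adjusted p = 5.64e-06, limma), a fall that became a change of 0.23 after centring on the median gene.

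Adhesion and innate recognition receptors had 16 of 40 genes in dense clusters, with 11 higher and 4 lower in matNeu than in GMP, beside 33 and 5 of 39 tested on the list. Pirb, an inhibitory receptor for class I molecules, went from 5.13, 1.99 and 3.57 TPM to 135, 165 and 164 and to 1231, 1344 and 1576 (8.30 ± 0.23, adjusted p = 3.78e-10, limma). The 3 stages of Pirb rose in order without overlap.

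Negative regulators of signalling had 10 of 33 genes in dense clusters, of which 8 were higher and 2 lower in matNeu than in GMP, beside 23 and 3 of 32 tested. Nfkbia, the inhibitor of NF-kappaB, went from 91.5, 56.3 and 72.5 TPM in GMP to 337, 328 and 259 in preNeu and 923, 820.4 and 962 in matNeu libraries (3.62 ± 0.17, adjusted p = 1.27e-08, limma). Rgs2, which limits G protein signalling, was at 58.7, 58.4 and 59.5, then 74.6, 74.8 and 78.4, then 669, 547 and 795 TPM (3.47 ± 0.14, adjusted p = 3.22e-09, limma), and Inpp5d, the SHIP1 phosphatase gene, rose by 1.40 ± 0.23 (adjusted p = 0.000217, limma). Pdcd4, an inhibitor of translation, was lower, with a log2 change of -3.01 ± 0.18 (adjusted p = 5.02e-08, limma). None of 15 genes for NuRD subunits and GFI1 partners had its start in a dense cluster, and of 12 cell cycle regulators only Cdk6 did. Dense clusters held the starts of 3.32% of all protein-coding genes, so lists this short would hold few at that share. Cdk6 was at 168, 164 and 170.3 TPM in GMP, 24.5, 30.5 and 18.7 in preNeu and 2.19, 2.02 and 1.74 in matNeu libraries. It was lower at both later stages than in GMP (adjusted p = 1.47e-06 and 1.1e-09, limma).

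Dense clusters also held 41 miRNA genes, in 33 clusters, whose RNA was not measured here. The best known in myeloid cells are Mir223, in a cluster of 15 peaks with 5 kept, Mir142, in one of 6 peaks with 1 kept, and Mir21a, in one of 18 peaks with 1 kept. Their mature sequences from RefSeq (GRCm38.p6) are shown because these genes are regulators that lie inside clusters, with the seed, bases 2 to 8, in capitals.
mmu-miR-223-3p: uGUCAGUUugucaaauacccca
mmu-miR-142a-3p: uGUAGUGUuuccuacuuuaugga
mmu-miR-142a-5p: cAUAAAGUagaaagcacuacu
mmu-miR-21a-5p: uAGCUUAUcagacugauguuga
mmu-miR-21c: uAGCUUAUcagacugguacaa
The last 2 share their seed and come from different clusters, that of Mir21c having 7 peaks with 2 kept.

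H3K4me2 covered 15.1% of the length of dense clusters in GMP, 32.1% in preNeu and 27.2% in matNeu, and 14.1%, 27.2% and 22.9% of regions of 2 to 5 peaks. The lists themselves differed in size, with 49.8, 97.9 and 80.3 Mb covered in the 3 stages. When each list was reduced to its strongest peaks up to the same covered length, 37630, 12304 and 15235 peaks, the cover of dense clusters was 15.1%, 14.5% and 15.2%. With only H3K4me2 peaks of a -log10 q-value of at least 5, which left 7075, 28732 and 22177 peaks, it was 2.24%, 28.4% and 21.4%. The higher cover of dense clusters in later stages was therefore not seen at equal length and was wider with the stricter threshold. As deposited, 967 clusters gained and 414 lost cover from GMP to matNeu, and 393 gained and 25 lost more than 20 percentage points. At equal length 474 gained and 867 lost, and the numbers over 20 points were 141 and 105. The mark lay over 42.6% of the CHD4 peaks in GMP, 66.4% in preNeu and 58.9% in matNeu, and 10 clusters had no H3K4me2 at any stage.

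The largest gains of cover as deposited were at Fpr2 and Fpr3 (0%, 85.3% and 98.4% in GMP, preNeu and matNeu), Nhsl2 (2.24%, 100% and 100%), S100a8 (4.43%, 100% and 100%), Ptprc (12.2%, 80.5% and 100%) and Plbd1 (15.9%, 100% and 100%). At equal covered length S100a8 and Plbd1 were still at 100% in both later stages, Fpr2 and Fpr3 at 0% and 98.4%, Ptprc at 34.8% and 100%, and Nhsl2 at 0% in both. The largest falls were at Rassf4 (76.7%, 58.0% and 32.03%), near Ivns1abp (67.6%, 52.4% and 26.6%), at Ern1 (56.98%, 46.7% and 18.3%), at a cluster 340699 bp from Mki67 (38.5%, 0% and 0%) and at Cd180 (56.4%, 33.4% and 21.2%), and at equal covered length matNeu was at 12.9%, 26.6%, 7.71%, 0% and 9.23% in these. Rassf4 RNA went from 121, 104 and 99.98 TPM in GMP to 4.50, 9.59 and 10.6 in preNeu and 1.91, 1.01 and 5.09 in matNeu libraries, and Ern1, which encodes the unfolded protein sensor IRE1, from 50.8, 58.2 and 44.2 to 2.62, 5.04 and 4.81 and 12.4, 6.78 and 11.6 TPM. Both genes were lower in matNeu than in GMP (adjusted p = 5.98e-07 and 2.54e-05, limma).

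H3K4me2 cover and RNA moved together across clusters. In 207 clusters whose tested genes were all higher in matNeu than in GMP the median cover was 18.9% in GMP, 47.4% in preNeu and 48.0% in matNeu, and 195 gained and 12 lost. In 172 clusters whose genes were all lower it was 22.5%, 35.4% and 23.8%, and 81 gained and 90 lost. At equal covered length the first group went from 18.9% to 24.8% and 28.6% (143 gained, 59 lost) and the second from 22.5% to 20.6% and 14.1% (48 gained, 122 lost), so the difference between the groups had the same direction. The 72 clusters with tested but uncalled genes lay between, at 19.1%, 40.1% and 28.4%. Across the 598 genes the log2 change and the change of cover from GMP to matNeu had a Pearson correlation of 0.55 and a Spearman correlation of 0.56, or 0.47 and 0.45 at equal length. Genes of 1 cluster share its cover and all points share the same libraries, so no p is given.

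**Figure D5:**
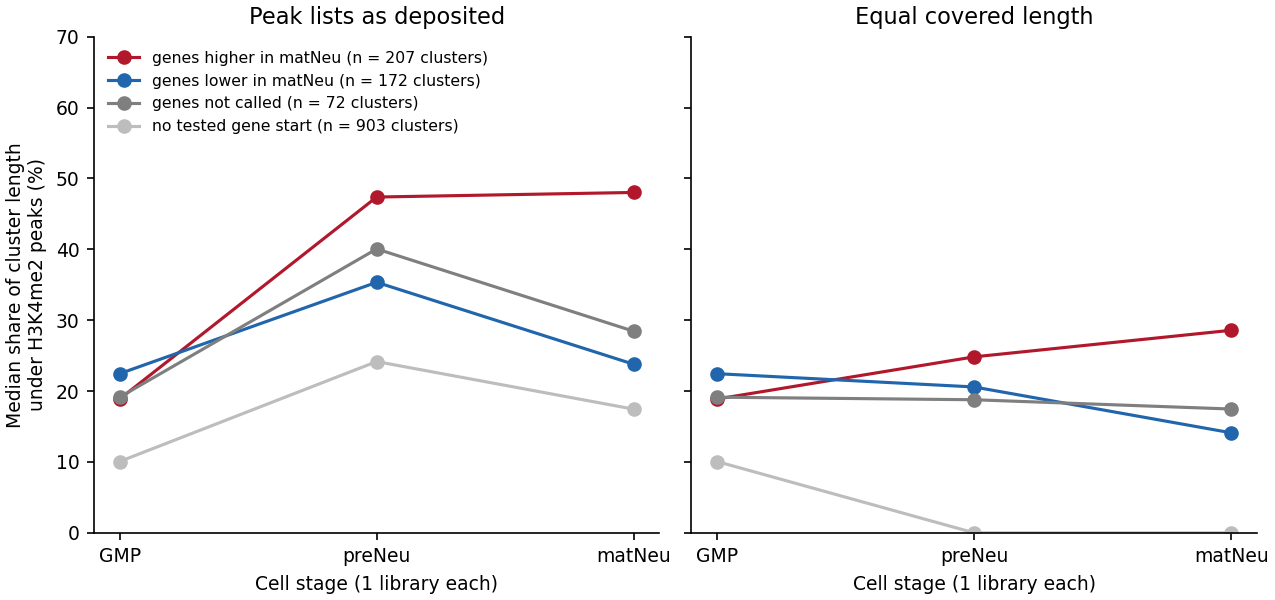
Median share of cluster length under H3K4me2 peaks (percent) in GMP, preNeu and matNeu cells, 1 library each, with the lists as deposited and at equal covered length; lines are clusters grouped by the matNeu against GMP calls of their tested genes. Clusters with higher genes go from 18.9% to 48.0% as deposited and to 28.6% at equal length, and those with lower genes from 22.5% to 23.8% and to 14.1%.

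The share of peaks kept in Gfi1-/- GMPs was 26.4% in clusters with higher genes, 26.7% in those with lower genes, 27.8% in those with uncalled genes and 25.7% in the 903 clusters without the start of a tested gene. The latter had the least H3K4me2, with a median cover of 10.1%, 24.2% and 17.5% in GMP, preNeu and matNeu, or 10.1%, 0% and 0% at equal covered length.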

How the data were processed

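ChIP-seq of CHD4 (wild-type and Gfi1-/- GMPs) and of H3K4me2 (GMP, preNeu, matNeu), 1 library each, and RNA-seq with 3 libraries per cell type were used, grouped by title. Peaks as deposited had been called by the authors library by library, and each carries its enrichment over background as a fold and its -log10 q. Expression was deposited as TPM, 1 column per library, with 0 columns left unused. The submitters' processing notes list Trimmomatic 0.36, BWA 0.7.17, MACS2 2.1.0, kallisto 0.44.0 and mm10 without roles, and read depths and peak thresholds are not given in the sources used here. The lists for GFI1, H3K4me3 and ATAC-seq were not used here: the first 2 carry human chromosome names, and the ATAC-seq lists of both stages are identical.

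CHD4 peaks at most 12.5 kb apart were joined, and a peak was kept where a peak of the Gfi1-/- list overlapped it by at least 1 bp. H3K4me2 cover is the share of cluster length under H3K4me2 peaks. Gene positions came from GENCODE M21 on GRCm38, the build of the lists, and sequences from its genome and from RefSeq. Expression was tested with limma 3.58.1 (R 4.3.3, lmFit and eBayes with trend) on log2(TPM + 1), all 9 libraries in 1 fit, over 13061 genes with at least 1 TPM in 3 libraries, with Benjamini-Hochberg adjustment. Other steps used Python 3.11.15 with scipy 1.17.1, and the fit was tested on simulated data. Intervals of shares are Wilson intervals and cover counting error only.

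Genes and clusters named were the 12 clusters with the most peaks, the 6 largest rises and falls to matNeu and to preNeu, up to 4 genes of each list (the 2 highest in GMP and the 2 with the largest change), the 5 clusters with the largest share kept and the 5 with the most peaks among those with none kept, the 5 with the largest gain and fall of H3K4me2 cover, the regions next to the limit, and clusters of 14 regulator and granule genes. The members and lists were chosen with earlier results of these data known. Some items that this rule names are not reported here.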

Additional observations from a re-analysis of the deposited data

How the results depend on the processing

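With a joining gap of 10000 or 15000 bp the share of peaks kept was 27.4% or 25.3%, and with a limit of 5 or 7 peaks 25.3% or 27.2%, and clusters with a kept peak made up 76.0% or 87.8% at those limits. H3K4me2 cover in GMP, preNeu and matNeu was 2.24%, 28.4% and 21.4% with only peaks of a -log10 q-value of at least 5. At equal covered length preNeu and matNeu were at 14.5% and 15.2%. Counted over CHD4 peaks cover was 42.6%, 66.4% and 58.9%. With the 10000 bp gap preNeu and matNeu cover was 35.8% and 30.3%, and with 15000 bp preNeu was at 29.5%.

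Centring on the median gene gave 287 higher (48.0%, beside 29.3% of all genes) and 130 lower genes (21.7%, beside 24.2%) in preNeu against GMP. It gave 391 higher (65.4%, beside 46.1%) and 120 lower (20.1%, beside 31.1%) in matNeu against GMP. In matNeu against preNeu it gave 377 higher (63.0%, beside 42.3%) and 101 lower (16.9%, beside 24.9%). Quantile normalization gave 255 higher (42.6%, beside 25.3% of all genes) and 141 lower (23.6%, beside 27.2%) in preNeu against GMP. In matNeu against GMP it gave 346 higher (57.9%, beside 38.2%) and 154 lower (25.8%, beside 38.0%). In matNeu against preNeu it gave 305 higher (51.0%, beside 31.5%) and 141 lower (23.6%, beside 31.1%). A minimum log2 change of 1 left 65 higher and 90 lower, 172 higher, and 140 higher and 77 lower in the 3 comparisons. Over genes whose body overlaps a cluster, more genes by construction, 350 were lower in preNeu and 405 higher and 357 lower in matNeu against GMP, and 389 higher and 256 lower in matNeu against preNeu. Over the nearest gene of each cluster 278 were higher and 345 lower in preNeu, 378 lower in matNeu against GMP and 297 lower in matNeu against preNeu. No share of all genes stands beside the counts at a minimum change, over overlapping genes or over nearest genes. Those counts describe the settings only and cannot be compared with the calls over all genes. Median log2 expression in GMP was 3.70 with a pseudocount of 0.1, 3.67 over overlapping genes and 4.96 over genes of at least 1 TPM. In 100 bp windows, which are shorter by construction, the GFI1, SPI1, ETS-IRF, RUNX, C/EBP and AP-1 cores were in 5.68%, 7.05%, 8.76%, 13.4%, 9.60% and 5.46% of summits.

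Of 3194 results of 61 named genes under alternatives, 3037 stayed on the same side of the threshold, 107 lost and 42 gained the call. A further 8 changed sign where the main fit or the alternative called the gene. Changes of sign in results called in neither fit were not counted apart and are among the 3037. After centring, Cd34 in matNeu against preNeu was at 0.67, and in matNeu against GMP Clec12a was at 0.13, Gpr18 at 1.31 and Ifngr1 at 0.23. After quantile normalization Ccl6 in preNeu against GMP was at 0.00254, and in matNeu against preNeu Gsn was at -0.13, Ifngr1 at -0.39 and S100a8 at 1.00. The cause was not tested.

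Libraries of equal number in the labels did not deviate together (correlations of -0.04 to 0.12), and not every library correlated best with its own number, so the numbers were not taken as pairs. With the replicate block 184 higher and 212 lower, 263 and 219, and 256 and 162 genes were called in the 3 comparisons. Leaving out 1 library gave 168 to 182 higher and 191 to 214 lower genes in preNeu against GMP, 241 to 263 and 203 to 219 in matNeu against GMP, and 233 to 260 and 147 to 164 in matNeu against preNeu. No share of all genes stands beside the counts with the block or with 1 library left out. They describe the settings only and cannot be compared with the calls over all genes. The peak lists have 1 library each and no depth, so a peak absent from a list may lie under its threshold.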
